A study of Mus musculus with 20 samples.

Results

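The cadherin, claudin and connexin genes measured here were 58 of the 19937 genes on the array: 23 cadherins, 23 claudins and 12 connexins. They were chosen by symbol, as every gene of the platform annotation named Cdh, Cldn, Gja, Gjb or Gjc followed by a number, and each was read from 1 probe set, the brightest on average over the 20 arrays among those that name the gene alone. All 58 symbols matched RefSeq without a change of name, and 2 of the genes had a second probe set. Differences were tested with limma on all genes together and called at an adjusted p under 0.05 over all 19937 genes.

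The study asked what an activating mutation of PIK3CA, the catalytic subunit of the growth-signalling kinase PI3K, does to mammary epithelial cells before a tumour forms. Cells were sorted from mouse mammary glands 4 weeks after tamoxifen, in 3 independent sortings, each from a pool of 2 to 3 estrus-synchronized mice per genotype on a mixed FVB/CD-1 background. The mutants carried K8-creERT2 and a PIK3CA H1047R transgene, and the controls carried K8-creERT2 alone and also received tamoxifen. CreERT2 was driven by the keratin 8 promoter, so recombination started in keratin 8-expressing cells, and GFP marks the mutant cells that express the transgene. The 7 groups were GFP-positive mutant and control Sca1-negative luminal cells (CD24 high), GFP-positive mutant and control Sca1-positive luminal cells (CD24 high), and GFP-positive mutant, GFP-negative mutant and control basal cells (CD24 low, Sca1 negative). All were CD45 negative, and controls were sorted as GFP-negative cells, so in the GFP-positive comparisons genotype and GFP gate differ together. GFP-positive basal cells trace to cells that expressed keratin 8 at recombination, so in the basal comparisons cell of origin can differ with the transgene too. Each group had 3 arrays except the mutant Sca1-positive luminal group, which had 2 (replicates 1 and 3). RNA of 2000 sorted cells was amplified for each array. The labels do not name the animals behind each pool, so p-values measure the spread between these sorted pools.

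Epithelial cells hold to each other through 3 kinds of protein covered here. Classical cadherins span the membrane at adherens junctions and bind the same cadherin on the next cell, with catenins linking them to actin; claudins form the strands of tight junctions that seal the space between luminal cells and set which ions pass; connexins assemble into gap junction channels through which small molecules move between cells. In the mammary gland E-cadherin (Cdh1) is the main luminal cadherin and P-cadherin (Cdh3) marks the basal, myoepithelial layer, while N-cadherin (Cdh2) is best known from neural and mesenchymal cells.

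The deposited log2 values had array medians of 3.66 to 3.80, and no detection calls were used, so levels near 3.7 cannot be told from background. Array values of different genes depend on their probes, so levels are compared only between groups for 1 gene, and differences between genes. The second replicates of GFP-positive mutant basal and control Sca1-positive luminal cells stood apart in that their values spread less over all probe sets (SD 1.71 and 1.72) than on the other arrays (1.78 to 1.88). The basal gate held cells with the basal markers Krt5, Krt14, Trp63, Acta2, Myh11 and Oxtr, all 6 of which were higher in control basal cells than in either control luminal group. All 7 immune, 6 endothelial, 5 fibroblast and 4 pericyte markers had means under 5 in every group.

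Most of the genes showed little signal. In 43 of the 58, every group mean was under 5, a share to set beside 63.8% of all genes; these were 19 of 23 cadherins, 15 of 23 claudins and 9 of 12 connexins. A group mean above 8 was reached by 8 of the 58 genes, against 8.27% of all genes. These were Cdh1, Cdh3, Cldn1, Cldn3, Cldn4, Cldn7, Gja1 and Gjb2. The distance between the highest and the lowest of the 7 group means exceeded 1 log2 unit in 16 of the 58 genes (27.6%), against 20.9% of all genes. It exceeded 3 log2 units in 9 of them (15.5%), against 2.35% of all genes. The widest ranges belonged to Gja1 (5.40), Cdh3 (5.06), Cldn1 (4.85), Cldn4 (4.61), Cldn7 (4.37) and Gjb2 (4.23). Of the 58 genes, 18 were called in at least 1 comparison and 40 in none. The same count was not made over all genes, so it cannot be set against a share.

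**Figure D1:**
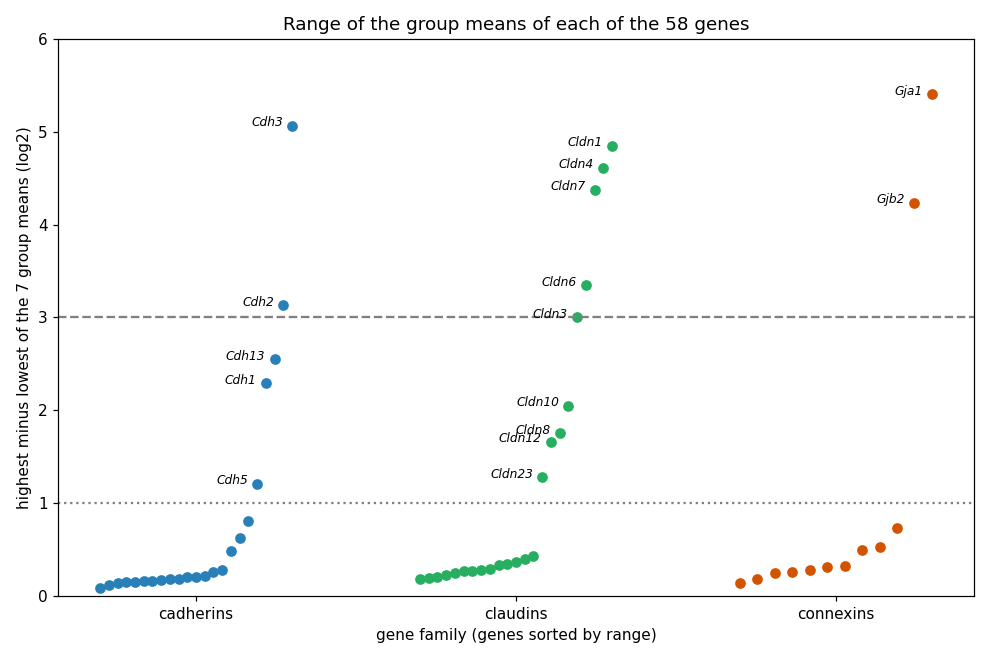
Highest minus lowest of the 7 group means (log2 units, y axis) for each of the 58 genes, split into cadherins, claudins and connexins and sorted within each; genes above 1 are named, and lines mark 1 and 3. Of the 16 genes above 1, 9 are claudins, and the 2 connexins above 1 are Gja1 and Gjb2.

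The first question was how the junction genes divide the basal from the luminal layer in control glands. Control basal cells had more Cdh3 and Gja1 and less Cdh1, Cldn3, Cldn4 and Cldn7 than either luminal population, with differences of 2.26 to 4.68 log2 units. Against Sca1-negative luminal cells 12 of 58 genes were called, 4 higher and 8 lower in basal cells, where 9.89% of all genes were called, 4.67% higher and 5.22% lower. Against Sca1-positive luminal cells 12 of 58 were called, 4 higher and 8 lower, where 12.3% of all genes were called, 5.94% higher and 6.32% lower. In the first comparison 18 of the 58 had no overlap between arrays, as had 25.9% of all genes, and in the second 17 had none, as had 25.1%. These 2 comparisons share the control basal arrays. All 7 claudins called in each comparison were lower in basal cells, and none of the 23 was called higher. The cadherins split, with Cdh3 and Cdh5 higher and Cdh1 lower in basal cells, and both connexins called, Gja1 and Gjc1, were higher in basal cells.

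Among the cadherins, Cdh3 read 8.37, 8.76 and 9.03 in control basal cells, against 4.04, 3.72 and 4.36 in control Sca1-negative and 4.09, 4.00 and 4.18 in control Sca1-positive luminal cells. The basal arrays stood apart from all 6 luminal arrays, which lay close to background. With levels that close to background the folds are approximate. The difference was 4.68 ± 0.18 (SE; 25.6-fold, adjusted p = 9.64e-11) against Sca1-negative and 4.63 ± 0.18 (24.7-fold, adjusted p = 9.92e-11) against Sca1-positive luminal cells. Cdh1, the epithelial cadherin, read 8.04, 8.30 and 8.34 in control basal cells, against 10.55, 10.46 and 10.50 in Sca1-negative and 10.75, 10.16 and 10.54 in Sca1-positive luminal cells. It was lower in basal cells on every array, by 2.27 ± 0.19 (SE; 4.84-fold, adjusted p = 6.98e-07) against Sca1-negative and 2.26 ± 0.19 (4.78-fold, adjusted p = 4.95e-07) against Sca1-positive luminal cells, but remained well above the array median there. Cdh3 and Cdh1 lie next to each other on chromosome 8 with no other protein-coding gene between them, and differed in opposite directions. In bulk samples fewer cells of a type and less RNA per cell cannot be told apart, here and in every comparison that follows.

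Cdh5, the vascular endothelial cadherin, read 4.01, 3.89 and 5.19 in control basal cells, and averaged 3.37 in Sca1-negative and 3.53 in Sca1-positive control luminal cells. Replicate 3 of the basal cells was the highest of these arrays. The differences were 1.0 ± 0.25 (SE; adjusted p = 0.0164) and 0.83 ± 0.25 (adjusted p = 0.0391). The first missed the threshold without control Sca1-negative replicate 2 (adjusted p = 0.0571), and the second missed it without control basal replicate 3 (difference 0.42, adjusted p = 0.116), Sca1-positive replicate 1 (0.101) or Sca1-positive replicate 2 (0.155). Averaged over the endothelial list, the array values were 3.56 to 4.12 in control basal cells, against 3.56 to 3.72 in Sca1-negative and 3.70 to 3.76 in Sca1-positive luminal cells, and all 6 markers had means under 5 in all 3 groups; their part in the Cdh5 difference was not tested. Cdh2 read 3.38, 3.46 and 3.52 in control basal cells and 2.84 to 3.26 over the 6 control luminal arrays, all below the array medians, and was not called (adjusted p = 0.32 and 0.451).

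Among the claudins, Cldn4, a tight junction claudin that is also a receptor for a bacterial enterotoxin, read 6.93, 7.19 and 5.59 in control basal cells, against 10.84, 10.79 and 10.79 in Sca1-negative and 11.02, 11.14 and 11.07 in Sca1-positive luminal cells. It was lower in basal cells by 4.24 ± 0.69 (SE; 18.9-fold, adjusted p = 0.000579) and by 4.51 ± 0.69 (22.8-fold, adjusted p = 0.000256). Cldn7, which is widespread in simple epithelia, read 6.30, 6.74 and 5.32 in control basal cells, against 9.77, 9.79 and 9.80 in Sca1-negative and 9.94, 9.72 and 9.87 in Sca1-positive luminal cells. Within each luminal population the arrays lay close together, while the basal arrays spread over more than 1 unit, with replicate 3 the lowest for both genes. Cldn7 differed by -3.67 ± 0.26 (SE; adjusted p = 8.98e-08) and -3.73 ± 0.26 (adjusted p = 4.57e-08). Cldn3, the chromosome 5 neighbour of Cldn4, averaged 6.48 ± 0.64 in basal cells (SD, n = 3), against 9.18 ± 0.03 and 9.06 ± 0.13 in Sca1-negative and Sca1-positive luminal cells (n = 3 each), and differed by -2.69 ± 0.29 and -2.58 ± 0.29 (SE; adjusted p = 1.07e-05 and 1.34e-05).

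The other claudins called had lower values. Cldn8 averaged 3.73 ± 0.04 in control basal cells, against 4.97 ± 0.56 in Sca1-negative and 5.19 ± 0.29 in Sca1-positive luminal cells (SD, n = 3 each), and Cldn10 averaged 3.88 ± 0.24, against 5.25 ± 0.49 and 5.70 ± 0.35. Both are known from kidney tubule epithelium, where they help set ion permeability. Their differences from Sca1-positive luminal cells were -1.47 ± 0.23 (SE; adjusted p = 0.000375) and -1.82 ± 0.21 (adjusted p = 1.81e-05), and both were also called against Sca1-negative cells (-1.24 and -1.37, adjusted p = 0.00197 and 0.000402). Cldn23 differed by -1.01 and -1.02 in the 2 comparisons (adjusted p = 0.00114 and 0.000868), with every group mean under 5. Cldn6, a claudin best known from embryonic epithelium, read 3.70, 3.91 and 3.77 in basal cells, against 4.75, 4.32 and 6.36 in Sca1-positive cells, and was called (-1.35 ± 0.37, adjusted p = 0.0224). This call was lost without control basal replicate 1 (adjusted p = 0.0649) or replicate 3 (0.0591). In Sca1-negative cells Cldn6 read 5.36, 4.82 and 4.69, also without overlap with basal cells, but was not called in the main fit. Some alternatives called that difference, among them the fit of these 2 groups alone (adjusted p = 0.0183) and array weights (0.0476), and others did not. Cldn5, the endothelial claudin, had means of 3.52 to 3.95 in all 7 groups.

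Cldn1, the claudin that seals the epidermal barrier, differed between the luminal populations. It read 5.54, 5.24 and 4.89 in control basal cells, against 8.28, 9.27 and 8.46 in Sca1-negative and 5.10, 5.19 and 5.38 in Sca1-positive luminal cells. The Sca1-negative arrays stood well above the other 6, and basal and Sca1-positive arrays overlapped. The difference of basal from Sca1-negative cells was -3.44 ± 0.96 (SE; 10.9-fold, adjusted p = 0.0309) and was lost without any one of the 6 arrays compared (adjusted p 0.0574 to 0.112). The standard error for Cldn1 is set largely by the GFP-negative mutant basal group, whose 3 arrays had an SD of 3.15; the other groups had SDs of 0.10 to 0.53.

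Of the connexins, Gja1 (connexin 43, the main myoepithelial connexin) read 9.88, 10.03 and 9.84 in control basal cells, against 6.95, 6.29 and 6.97 in Sca1-negative and 5.25, 5.22 and 6.01 in Sca1-positive luminal cells. The 3 control groups did not overlap for this gene. Basal cells exceeded Sca1-negative luminal cells by 3.18 ± 0.27 (SE; 9.06-fold, adjusted p = 7.84e-07) and Sca1-positive luminal cells by 4.42 ± 0.27 (21.4-fold, adjusted p = 1.43e-08). Gjb2 (connexin 26, a luminal connexin of the mammary gland) read 6.92, 5.01 and 4.52 in control basal cells, against 6.63, 7.27 and 7.36 in Sca1-negative and 5.05, 4.83 and 5.52 in Sca1-positive luminal cells. Basal replicate 1 was as high as the Sca1-negative arrays, and neither difference was called (-1.60, adjusted p = 0.0844, and 0.35, adjusted p = 0.797); without basal replicate 1 the first was (adjusted p = 0.00505). Gjc1 (connexin 45) differed by 0.58 ± 0.11 and 0.61 ± 0.11 (SE; adjusted p = 0.00181 and 0.000999) with group means of 2.79 to 3.52, all under the array medians.

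**Figure D2:**
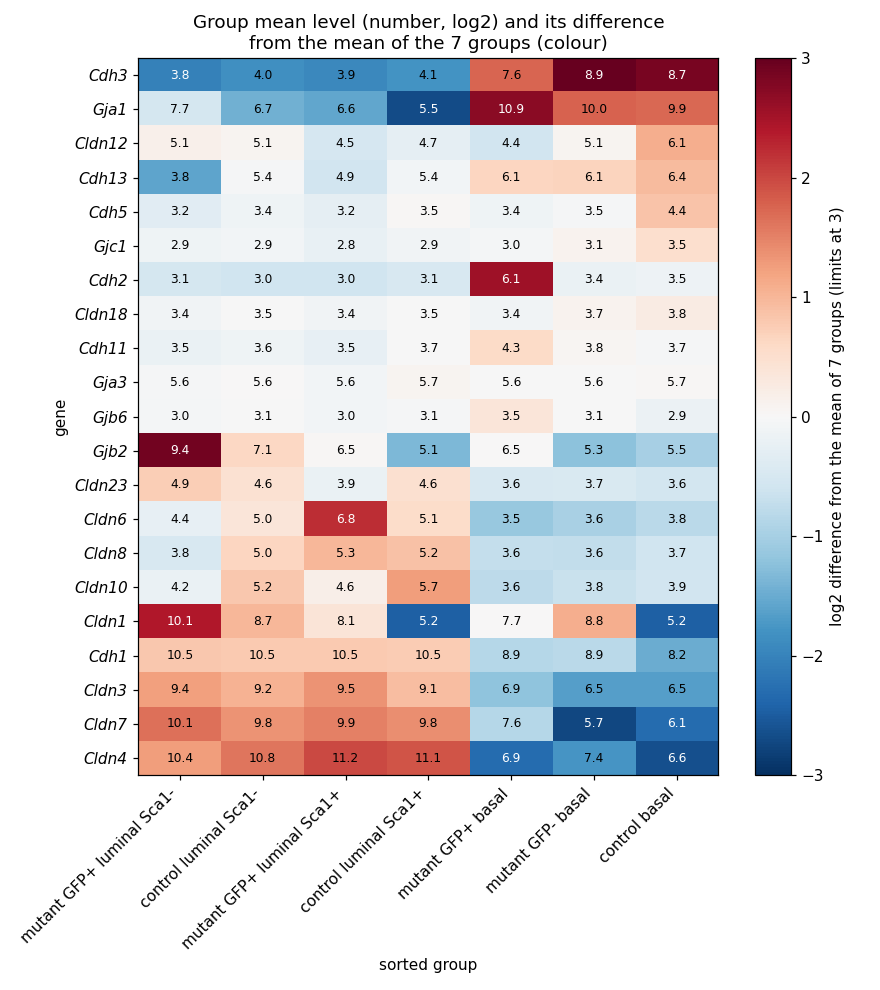
Group means (printed, log2 array units) of the genes that were called in any comparison or reached a group mean of 5, in the 7 sorted groups (columns), with colour for the difference from the gene's mean over the groups (limits at 3). Genes are ordered by control basal minus control luminal difference: Cdh3 and Gja1 are high in the basal columns, Cldn4, Cldn7, Cldn3 and Cdh1 in the luminal ones.

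Genes that build or anchor the same junctions were counted beside them. Of 42 partner genes measured (catenins, nectins, tight junction scaffolds, desmosome proteins, pannexins and Epcam), 6 were higher and 16 lower in control basal than in Sca1-negative luminal cells, and the counts were also 6 and 16 against Sca1-positive luminal cells. Of all genes, 4.67% were higher and 5.22% lower in the first comparison, and 5.94% and 6.32% in the second. Of the 15 tight junction partners, 9 and 8 were lower in the 2 comparisons, where 5.22% and 6.32% of all genes were lower, and none was higher. The largest differences from Sca1-negative cells were in Pkp2, a desmosomal plakophilin (-3.99), Ocln, which encodes occludin (-2.96), Dsc2, a desmosomal cadherin (-2.88), Marveld2, which encodes tricellulin (-2.71), and Afdn, which encodes the nectin-binding afadin (-2.15).

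Upstream sequence is shown for 5 of the genes, read from RefSeq (GRCm38.p6), which gave a window for 43 of the 58; Cdh1 and Cdh3 were not among the 43. These 5 are shown because Cldn3 and Cldn4 are neighbours that differed in the same direction, and because Cldn7, Gjb2 and Gja1 recur in the mutant comparisons. Each is the 250 bases before the annotated start, 5′ to 3′ on the gene's strand: Cldn4 at chr5:134946935-134947184 (minus strand), Cldn3 at chr5:134985964-134986213 (plus), Cldn7 at chr11:69964529-69964778 (plus, the first of 2 starts), Gjb2 at chr14:57104703-57104952 (minus) and Gja1 at chr10:56377050-56377299 (plus). Capitals mark the E-box CAGGTG, bound by zinc-finger repressors of epithelial genes, and the AP-1 motif TGAGTCA, each on either strand (CACCTG and TGACTCA).
Cldn4: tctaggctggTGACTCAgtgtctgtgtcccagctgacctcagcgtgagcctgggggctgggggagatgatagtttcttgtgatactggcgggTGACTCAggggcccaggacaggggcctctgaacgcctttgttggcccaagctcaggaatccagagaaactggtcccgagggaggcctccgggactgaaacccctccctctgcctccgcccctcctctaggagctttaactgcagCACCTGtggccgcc
Cldn3: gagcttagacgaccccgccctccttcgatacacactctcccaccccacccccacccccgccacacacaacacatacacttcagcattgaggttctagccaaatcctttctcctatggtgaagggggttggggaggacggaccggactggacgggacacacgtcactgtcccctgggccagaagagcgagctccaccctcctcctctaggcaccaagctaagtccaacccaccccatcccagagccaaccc
Cldn7: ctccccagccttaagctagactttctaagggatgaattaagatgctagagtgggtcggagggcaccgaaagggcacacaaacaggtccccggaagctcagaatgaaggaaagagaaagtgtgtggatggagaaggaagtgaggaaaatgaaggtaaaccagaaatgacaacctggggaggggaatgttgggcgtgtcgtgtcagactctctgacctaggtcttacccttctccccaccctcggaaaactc
Gjb2: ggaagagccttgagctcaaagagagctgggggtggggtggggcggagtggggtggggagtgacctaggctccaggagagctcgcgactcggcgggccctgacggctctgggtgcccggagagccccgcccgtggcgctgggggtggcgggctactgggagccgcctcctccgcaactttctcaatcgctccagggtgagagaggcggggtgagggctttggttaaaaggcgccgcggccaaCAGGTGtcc
Gja1: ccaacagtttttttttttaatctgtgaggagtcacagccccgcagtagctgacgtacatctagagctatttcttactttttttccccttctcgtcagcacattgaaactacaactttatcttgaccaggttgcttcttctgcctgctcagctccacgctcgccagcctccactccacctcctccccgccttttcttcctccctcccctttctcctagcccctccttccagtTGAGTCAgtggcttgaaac
The Cldn4 window held 1 E-box and 2 AP-1 matches, the Gjb2 window 1 E-box and the Gja1 window 1 AP-1 match. The Cldn3 window and the Cldn7 window printed held neither, and the window of the second Cldn7 start held 2 E-box matches. The E-box was found in 8 of the 43 genes with a window (18.6%), against 19.4% of all 27025 genes with one, and the AP-1 motif in 3 of 43 (6.98%), against 5.16%. A match is a description of the letters and no evidence of binding.

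Between the control luminal populations 1 of 58 genes was called, where 0.762% of all genes were, and arrays did not overlap for 6 of the 58, against 13.3% of all genes. Gja1 was lower in Sca1-positive than in Sca1-negative control luminal cells, by 1.24 ± 0.27 (SE; 2.37-fold, adjusted p = 0.0426), with the values given above. This call was lost without control Sca1-negative replicate 1 (adjusted p = 0.17) or replicate 3 (0.182), Sca1-positive replicate 1 (0.157) or replicate 2 (0.17), and in the fit of these 2 groups alone (0.205). Cldn1 and Gjb2 had larger differences, -3.44 ± 0.96 and -1.95 ± 0.55, with no overlap between the arrays of the 2 populations, but were not called (adjusted p = 0.157 and 0.163). With the GFP-negative mutant basal group left out of the fit the adjusted p for Cldn1 was 4.3e-05, and in the fit of the 2 groups alone it was 0.0132. Cdh1, Cldn3, Cldn4 and Cldn7 differed by at most 0.27 units between these populations. Among the partner genes, the tight junction partner Pard6b was called lower in Sca1-positive cells (-1.04 ± 0.22 SE, adjusted p = 0.0365).

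In the basal gate GFP-positive mutant cells had more Cdh2 and less Cdh3 than control cells, by 2.68 and -1.09 log2 units, together with more Cldn7, by 1.46 log2 units. Of the 58 genes, 8 were called, 4 higher (Cdh2, Cdh11, Cldn7 and Gjb6) and 4 lower (Cdh3, Cdh5, Cldn18 and Gjc1), where 4.23% of all genes were called, 2.32% higher and 1.91% lower. No overlap between arrays was found for 17 of the 58, against 18.6% of all genes. In 5 of the 8 (Cdh5, Cdh11, Cldn18, Gjb6 and Gjc1), every group mean was under 5. The median difference over the 58 genes was -0.06, against -0.03 over all genes. Without GFP-positive replicate 3 the count was 4, and the fit of these 2 groups alone called 2, Cdh2 and Cldn1.

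Cdh2 read 6.13, 5.43 and 6.85 in GFP-positive mutant basal cells, against 3.38, 3.46 and 3.52 in control basal cells. Every GFP-positive array was nearly 2 units above every control array, and controls were under the array medians. The rise was 2.68 ± 0.24 (SE; adjusted p = 4.06e-06), and it ranged over 2.33 to 3.03 with single arrays left out (adjusted p at most 4.33e-05). As the controls were at background the fold is a lower bound: with each control array's median in place of its lower Cdh2 value, Cdh2 was at least 5.24-fold higher. In the other 6 groups Cdh2 means were 3.00 to 3.45. Cdh3 read 7.99, 7.42 and 7.46 in GFP-positive mutant basal cells, against 8.37, 8.76 and 9.03 in control basal cells, a fall of 2.13-fold that did not take it near the luminal levels of about 4 units. The difference was -1.09 ± 0.18 (SE; adjusted p = 0.00171), and -1.28 to -0.94 with single arrays left out (adjusted p at most 0.011); in the fit of these 2 groups alone it was not called (adjusted p = 0.103).

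The other cadherin calls lay near background. Cdh11, a mesenchymal cadherin, read 4.24, 4.23 and 4.45 in GFP-positive mutant basal cells, against 3.55, 3.65 and 3.86 in control basal cells (difference 0.62 ± 0.14 SE, adjusted p = 0.0184). Its call was lost without control replicate 1 (adjusted p = 0.0744) or replicate 2 (0.0563), or GFP-positive replicate 3 (0.0797). Cdh5 read 3.30, 3.52 and 3.31 in GFP-positive mutant basal cells, against 4.01, 3.89 and 5.19 in control basal cells. Its difference of -0.99 ± 0.25 (SE; adjusted p = 0.0345) became -0.57 without control replicate 3 (adjusted p = 0.0631), and it was also lost without GFP-positive replicate 1 (0.106), 2 (0.0586) or 3 (0.1). The endothelial list had array means of 3.45 to 3.52 in GFP-positive mutant basal cells, against 3.56 to 4.12 in control basal cells, with all 6 markers under 5 in both; its part in the Cdh5 difference was not tested. Cdh1 read 9.11, 8.71 and 8.76 in GFP-positive mutant basal cells, against 8.04, 8.30 and 8.34 in control basal cells, without overlap, and was not called at 0.63 ± 0.19 (adjusted p = 0.0804). With the GFP-negative mutant basal group left out of the fit the adjusted p was 0.0196. That group read 8.76, 9.43 and 8.54 for Cdh1, also above every control basal array and not called, so the higher values were not particular to GFP-positive cells.

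Among the claudins, Cldn7 read 7.95, 7.30 and 7.46 in GFP-positive mutant basal cells, against 6.30, 6.74 and 5.32 in control basal cells. All GFP-positive arrays were above all control arrays and about 2 units below the luminal ones. The difference was 1.46 ± 0.26 (SE; 2.75-fold, adjusted p = 0.00311) and 1.06 to 1.77 with single arrays left out (adjusted p at most 0.0188), though it was not called in the fit of these 2 groups alone (adjusted p = 0.177). Cldn3 averaged 6.93 ± 0.60 in GFP-positive mutant and 6.48 ± 0.64 in control basal cells, and Cldn4 averaged 6.88 ± 1.02 and 6.57 ± 0.86 (SD, n = 3 each). Neither was called (differences 0.45 and 0.31, 95% intervals -0.18 to 1.08 and -1.16 to 1.77). Cldn1 read 7.84, 7.14 and 8.06 in GFP-positive mutant basal cells, against 5.54, 5.24 and 4.89 in control basal cells. Its arrays did not overlap, yet the difference of 2.46 ± 0.96 was not called (adjusted p = 0.202) in the fit whose shared error includes the GFP-negative basal arrays; with that group left out of the fit the adjusted p was 6.44e-05, and in the fit of these 2 groups alone 0.0154. Cldn12 read 4.23, 4.46 and 4.56 in GFP-positive mutant basal cells, against 7.11, 4.61 and 6.51 in control basal cells, and was not called (-1.66 ± 0.69, adjusted p = 0.233). Cldn18, a claudin of stomach and lung, differed by -0.36 ± 0.09 (adjusted p = 0.0457), a call lost without control replicate 1 (adjusted p = 0.176) or GFP-positive replicate 1 (0.145), 2 (0.0935) or 3 (0.0719).

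Among the connexins, Gja1 read 11.20, 10.50 and 11 in GFP-positive mutant basal cells, against 9.88, 10.03 and 9.84 in control basal cells. These arrays did not overlap, and the difference of 0.98 ± 0.27 (SE; 95% interval 0.41 to 1.55) just missed the threshold (adjusted p = 0.0528). Of 15 alternatives, 6 called Gja1 and 9 did not (adjusted p up to 0.186). Among the 6 were quantile normalization (0.0373) and the fit without GFP-positive replicate 2, one of the arrays of narrow spread (0.0342). Gjb2 read 7.54, 5.28 and 6.63 in GFP-positive mutant basal cells and 6.92, 5.01 and 4.52 in control basal cells, which overlapped (1.0 ± 0.55, adjusted p = 0.408). Gjb6 (connexin 30), the neighbour of Gjb2 on chromosome 14, read 3.18, 3.55 and 3.63 in GFP-positive mutant basal cells, against 2.91, 2.80 and 3.06 in control basal cells (0.53 ± 0.12, adjusted p = 0.0174). Its call was lost without control replicate 1 (adjusted p = 0.0507) or 2 (0.0698), or GFP-positive replicate 2 (0.0654) or 3 (0.0817). Gjc1 read 3.03, 2.93 and 2.92 in GFP-positive mutant basal cells, against 3.46, 3.70 and 3.40 in control basal cells (-0.56 ± 0.11, adjusted p = 0.00647). Both genes stayed under the array medians in both groups.

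Luminal and basal marker levels differed between these groups too. The 3 luminal keratins Krt8, Krt18 and Krt19 had array means of 9.39 to 10.49 in GFP-positive mutant basal cells, against 8.59 to 9.46 in control basal cells, and Krt18 (1.01) and Krt19 (1.48) were called higher. The 6 basal markers had array means of 9.43 to 9.79 in GFP-positive mutant basal cells, against 9.97 to 10.02 in control basal cells, and Oxtr (-1.84) and Myh11 (-0.70) were called lower. Of the 4 luminal progenitor markers, whose array means were 5.91 to 6.55 in GFP-positive mutant basal cells, against 4.98 to 5.27 in control basal cells, Elf5 was called higher (means 5.73 and 3.90, difference 1.84 ± 0.43 SE, adjusted p = 0.0227), and Csn3 (10.15 and 8.50, adjusted p = 0.0757), Kit and Aldh1a3 were not. The part of these shifts in the Cdh3, Cldn7 and other differences was not tested. The 4 pericyte markers had array means of 3.56 to 3.92 in GFP-positive mutant basal cells, against 3.53 to 3.64 in control basal cells, and 1 of them, Cspg4, was called higher with Cdh2 (means 4.18 and 3.46, difference 0.72 ± 0.18 SE, adjusted p = 0.0319). The GFP-positive basal mean of Cspg4 was the highest of the 7 groups, and Pdgfrb, Rgs5 and Notch3 were not called. The 5 fibroblast markers had array means of 3.41 to 3.53 in GFP-positive mutant basal cells and 3.48 to 3.69 in control basal cells, with none called. The glial marker S100b was called lower (means 3.38 and 3.81, adjusted p = 0.0299), and its mean in GFP-negative mutant basal cells was 3.24. The other glial marker measured, Mbp, was not called (means 4.54 and 4.58). All these pericyte, fibroblast and glial means were under 5, and their part in the rise of Cdh2 was not tested. Of the 42 partner genes, 5 were higher and 2 lower, where 2.32% of all genes were higher and 1.91% lower. Ctnnd2, which encodes the catenin delta-catenin, had the largest difference (1.82 ± 0.31, adjusted p = 0.00236), followed by Pkp2 (1.13), Ppl, which encodes periplakin (1.11), and the nectin gene Nectin3 (-1.10).

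**Figure D3:**
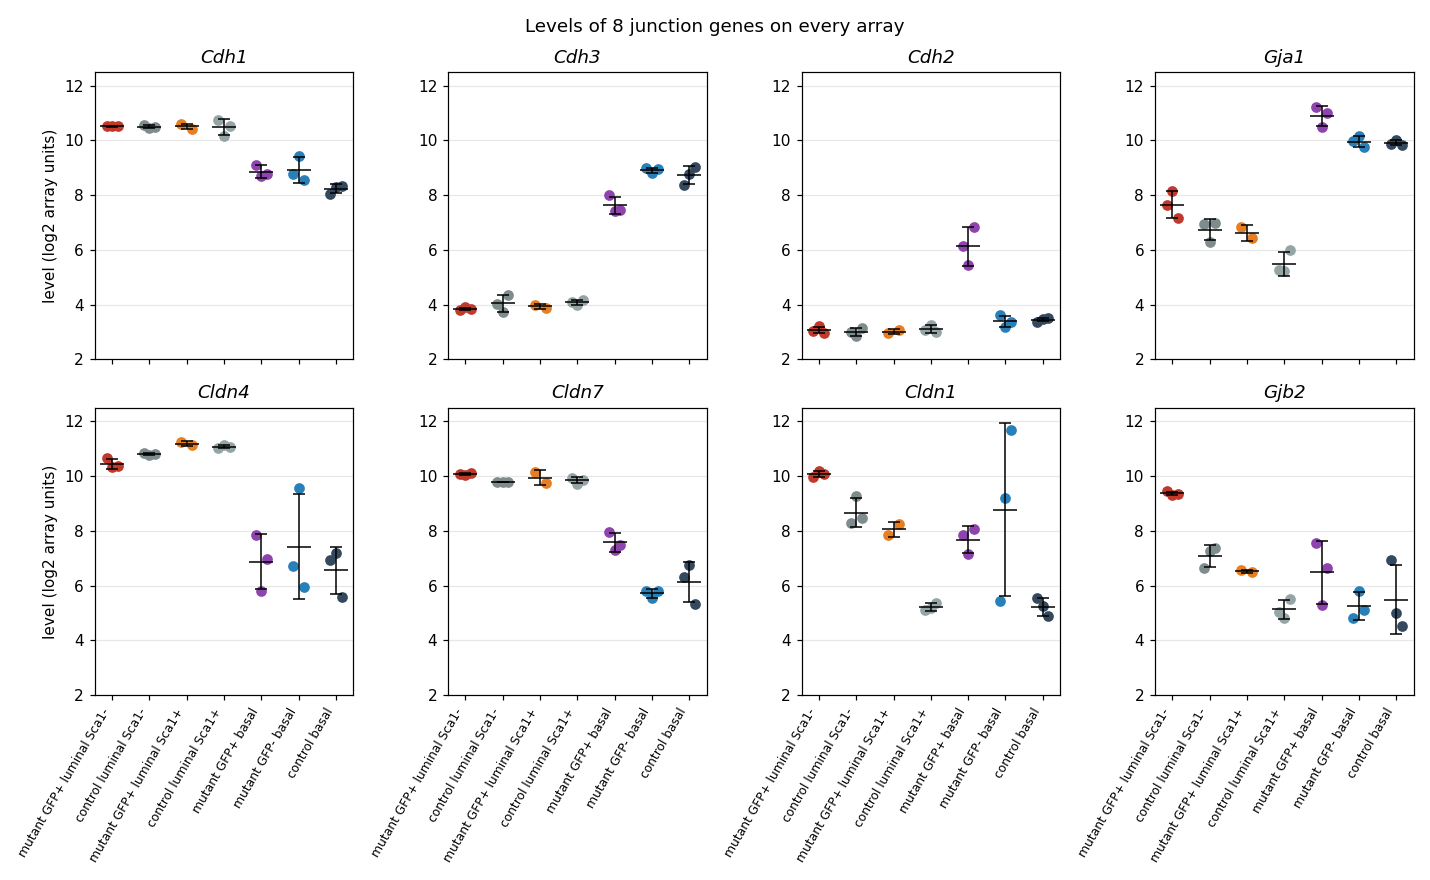
Levels (log2 array units, y axis) of 8 genes on every array in the 7 sorted groups (x axis), with black bars for the group mean and SD (n = 3, or 2 for mutant Sca1-positive luminal cells). Cdh2 is raised in GFP-positive mutant basal cells, at 5.43 to 6.85, and Cldn1 runs over 5.42 to 11.68 in GFP-negative mutant basal cells.

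Comparing GFP-positive with GFP-negative basal cells asks whether the change goes with the GFP gate within mutant glands. Transgene expression and cell of origin cannot be told apart in it. Both populations came from mutant glands and can share pools, and the main fit did not pair them. Of the 58 genes, 3 were called, Cdh2 and Cldn7 higher and Cdh3 lower in GFP-positive cells, where 3.25% of all genes were called, 2.05% higher and 1.2% lower. Arrays did not overlap for 9 of the 58, against 15% of all genes. Cdh2 read 6.13, 5.43 and 6.85 in GFP-positive cells, against 3.61, 3.19 and 3.35 in GFP-negative cells, a difference of 2.75 ± 0.24 (SE; adjusted p = 3.28e-06). The GFP-negative values were under the array medians too, and against those medians Cdh2 was at least 5.38-fold higher. Cldn7 read 7.95, 7.30 and 7.46 in GFP-positive cells, against 5.80, 5.54 and 5.80 in GFP-negative cells, and differed by 1.86 ± 0.26 (3.63-fold, adjusted p = 0.000421). Cdh3 read 7.99, 7.42 and 7.46 in GFP-positive cells, against 8.98, 8.81 and 8.94 in GFP-negative cells, and differed by -1.28 ± 0.18 (2.44-fold lower, adjusted p = 0.000472). The 2 sorted populations overlapped for none of the 3 genes. These calls held with each of the 6 arrays left out in turn (adjusted p at most 0.00358), and 2 genes were added without GFP-negative replicate 1 (Cdh11 and Cldn1, adjusted p = 0.0124 and 0.00736) and without GFP-positive replicate 1 (Gjb6 and Cdh10, adjusted p = 0.0288 and 0.0174). Gja1 differed by 0.94 ± 0.27 and was not called (adjusted p = 0.0764; 0.049 without GFP-positive replicate 2), and Gjb2 by 1.23 ± 0.55 (adjusted p = 0.335). Of the 42 partner genes, Ctnnd2 (2.25) and Mpp5, a polarity scaffold (0.92), were higher, and Panx1, a pannexin channel (-1.17), Nectin3 (-0.91) and Tjp1, which encodes ZO-1 (-0.71), were lower. Both comparisons share the GFP-positive basal arrays. Krt18 (1.06) and the luminal progenitor marker Elf5 (1.94, adjusted p = 0.0205) were also higher and Myh11 lower (-0.66) in GFP-positive than in GFP-negative cells, while Csn3 (1.80, adjusted p = 0.0617) and the pericyte marker Cspg4 (0.66, adjusted p = 0.0613) were not called; their part was not tested.

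GFP-negative mutant basal cells had no gene of the 58 called against control basal cells by limma, where 0.161% of all genes were called. An unadjusted p under 0.05 was found for 6 of the 58, against 1932 of all 19937 genes. Arrays did not overlap for 9 of the 58, against 13.7% of all genes. Cdh2 differed by -0.07 (95% interval -0.57 to 0.43) and Cdh3 by 0.19 (-0.19 to 0.57). Cldn1 stood out for its spread, with 5.42, 9.21 and 11.68 in GFP-negative mutant basal cells, against 5.54, 5.24 and 4.89 in control basal cells. Replicate 1 was at the control level, and replicate 3 was the highest Cldn1 value of all 20 arrays. The difference of 3.55 ± 0.96 was not called (adjusted p = 0.201), but without GFP-negative replicate 1 it was 5.22 (adjusted p = 0.000507). The sign of the GFP-positive minus GFP-negative difference for Cldn1 also rested on these arrays: -1.09 ± 0.96 with all of them (adjusted p = 0.734), 0.36 without GFP-negative replicate 3 (adjusted p = 0.92) and -2.77 without replicate 1 (adjusted p = 0.00736). Cldn4 also had a stray array, with 6.72, 9.58 and 5.97 in GFP-negative mutant and 6.93, 7.19 and 5.59 in control basal cells, where GFP-negative replicate 2 was the high one. The same array stood above the others of its group for the partner genes Marveld2 (6.97, against 4.31 and 3.69), Dsg3 (6.07, against 3.23 and 3.05) and Dsc3 (7.92, against 3.83 and 5.46). For Cldn3 (6.10) and Cldn7 (5.54) it was the lowest of its group. Cdh5 read 3.58, 3.33 and 3.49 in GFP-negative mutant basal cells, below the 3 control values, and was not called (-0.90 ± 0.25, adjusted p = 0.206). Without GFP-negative replicate 3, Gjc1 was the gene called (adjusted p = 0.0239). Of the 42 partner genes, 1 was called, Afdn (1.20 ± 0.19, adjusted p = 0.0222). Of the 2 glial markers, 1 was called lower, and S100b had means of 3.24 in GFP-negative mutant and 3.81 in control basal cells.

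In Sca1-negative luminal cells the mutation went with more Gjb2 and less Cldn8 and Cldn10, while no cadherin was called, nor Cldn1, Cldn3, Cldn4 or Cldn7. Of the 58 genes, 3 were called, 1 higher and 2 lower, where 1.9% of all genes were, 1.21% higher and 0.682% lower. Arrays did not overlap for 19 of the 58, against 22.6% of all genes. With any one of the 6 arrays left out, at most 1 of the 58 was called. Gjb2 read 9.44, 9.32 and 9.34 in GFP-positive mutant cells, against 6.63, 7.27 and 7.36 in control cells. The mutant arrays lay close together and about 2 units above every control array. The difference was 2.28 ± 0.55 (SE; 4.86-fold, adjusted p = 0.045), and the fit of these 2 groups alone gave an adjusted p of 0.0109. It was not called without any one of the 6 arrays (differences 2.05 to 2.42, adjusted p 0.091 to 0.177), nor with the GFP-negative basal group left out of the fit (0.0588). Gja1 read 7.62, 8.16 and 7.18 in GFP-positive mutant cells, against 6.95, 6.29 and 6.97 in control cells, without overlap and not called (0.92 ± 0.27, adjusted p = 0.123).

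Cldn8 read 3.66, 3.90 and 3.94 in GFP-positive mutant Sca1-negative luminal cells, against 4.81, 4.50 and 5.58 in control cells. The difference was -1.13 ± 0.23 (SE; 2.17-fold lower with the array median as a floor, adjusted p = 0.0169). Cldn10 read 4.30, 4.16 and 4.26 in GFP-positive mutant cells, against 5.77, 5.16 and 4.81 in control cells (-1.01 ± 0.21, 2.01-fold lower, adjusted p = 0.0212). For both genes the mutant arrays were below all control arrays, and the mutant Cldn8 mean of 3.83 lay near the basal means of 3.57 to 3.73. The Cldn8 call was lost without control replicate 3 (difference -0.82, adjusted p = 0.0618) or mutant replicate 1 (0.0794), and the Cldn10 call without control replicate 1 (difference -0.74, adjusted p = 0.093) or 2 (0.0521) or mutant replicate 1 (0.0607), 2 (0.0812) or 3 (0.069). In the fit of these 2 groups alone neither was called (adjusted p = 0.127 and 0.121). The hormone-sensing luminal markers Esr1, Pgr and Foxa1 had array means of 4.89 to 5.05 in GFP-positive mutant cells, against 6.62 to 7.25 in control cells, and all 3 were called lower. The 4 luminal progenitor markers had array means of 8.08 to 8.43 in GFP-positive mutant cells, against 7.47 to 7.71 in control cells, and 1 of them, Elf5, was called higher (means 8.71 and 6.48, difference 2.23 ± 0.43 SE, adjusted p = 0.0113). The part of either list in the Gjb2, Cldn8 and Cldn10 differences was not tested.

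Among the genes not called, Cldn1 read 9.97, 10.17 and 10.08 in GFP-positive mutant Sca1-negative luminal cells, against 8.28, 9.27 and 8.46 in control cells, without overlap and not called (1.41 ± 0.96, adjusted p = 0.69; 0.0135 with the GFP-negative basal group left out of the fit). Cdh13, a cadherin anchored to the membrane without a cytoplasmic tail, read 3.65, 3.85 and 4.04 in GFP-positive mutant cells, against 6.06, 5.05 and 5.09 in control cells (-1.55 ± 0.45, adjusted p = 0.109). Cdh1 averaged 10.52 ± 0.01 in GFP-positive mutant and 10.50 ± 0.05 in control cells (SD, n = 3 each), with a difference of 0.02 and a 95% interval of -0.39 to 0.42. The intervals were -0.24 to 0.84 for Cldn7, -0.44 to 0.81 for Cldn3 and -1.83 to 1.10 for Cldn4. Of the 42 partner genes, Cgnl1, which encodes paracingulin (1.30), and Dsg2, a desmosomal cadherin (0.79), were higher, and Dsc2 was lower (-1.77 ± 0.22, adjusted p = 0.000346). Of all genes, 1.21% were higher and 0.682% lower.

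In Sca1-positive luminal cells, with 2 mutant arrays, limma called none of the 58 genes, where 0.226% of all genes were called. An unadjusted p under 0.05 was found for 7 of the 58, against 1786 of all 19937 genes. Arrays did not overlap for 18 of the 58, against 28.6% of all genes. Cldn1 read 7.86 and 8.25 in GFP-positive mutant cells, against 5.10, 5.19 and 5.38 in control cells. The 2 mutant arrays were over 2 units above the controls, and the difference was 2.83 ± 1.07 (SE; 7.10-fold, 95% interval 0.54 to 5.11, adjusted p = 0.451). With the GFP-negative basal group left out of the fit the adjusted p was 0.000916, and in the fit of these 2 groups alone it was 0.0172. Cldn6 read 6.81 on both mutant arrays, against 4.75, 4.32 and 6.36 in control cells, where control replicate 3 lay close to the mutants (1.67 ± 0.41, adjusted p = 0.143); without that array the difference was 2.28 (adjusted p = 0.000481). Gjb2 read 6.56 and 6.48 in GFP-positive mutant cells, against 5.05, 4.83 and 5.52 in control cells (1.39 ± 0.61, adjusted p = 0.536). Gja1 read 6.82 and 6.42 in GFP-positive mutant cells, against 5.25, 5.22 and 6.01 in control cells (1.13 ± 0.30, adjusted p = 0.19). Cdh1 differed by 0.02 (95% interval -0.43 to 0.47). None of the 42 partner genes was called, and the 6 basal markers had array means of 5.33 to 5.61 in GFP-positive mutant cells, against 4.57 to 4.85 in control cells. Among them Krt5 was called higher (means 6.97 and 4.83, difference 2.14 ± 0.28 SE, adjusted p = 0.00223), its mutant minus control difference was smaller in basal cells (interaction -1.91, adjusted p = 0.0191), and its part was not tested. The 4 luminal progenitor markers had array means of 6.25 to 6.36 in GFP-positive mutant cells, against 5.67 to 5.85 in control cells. None of them was called (Elf5 means 5.99 and 4.79), and their part was not tested.

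**Figure D4:**
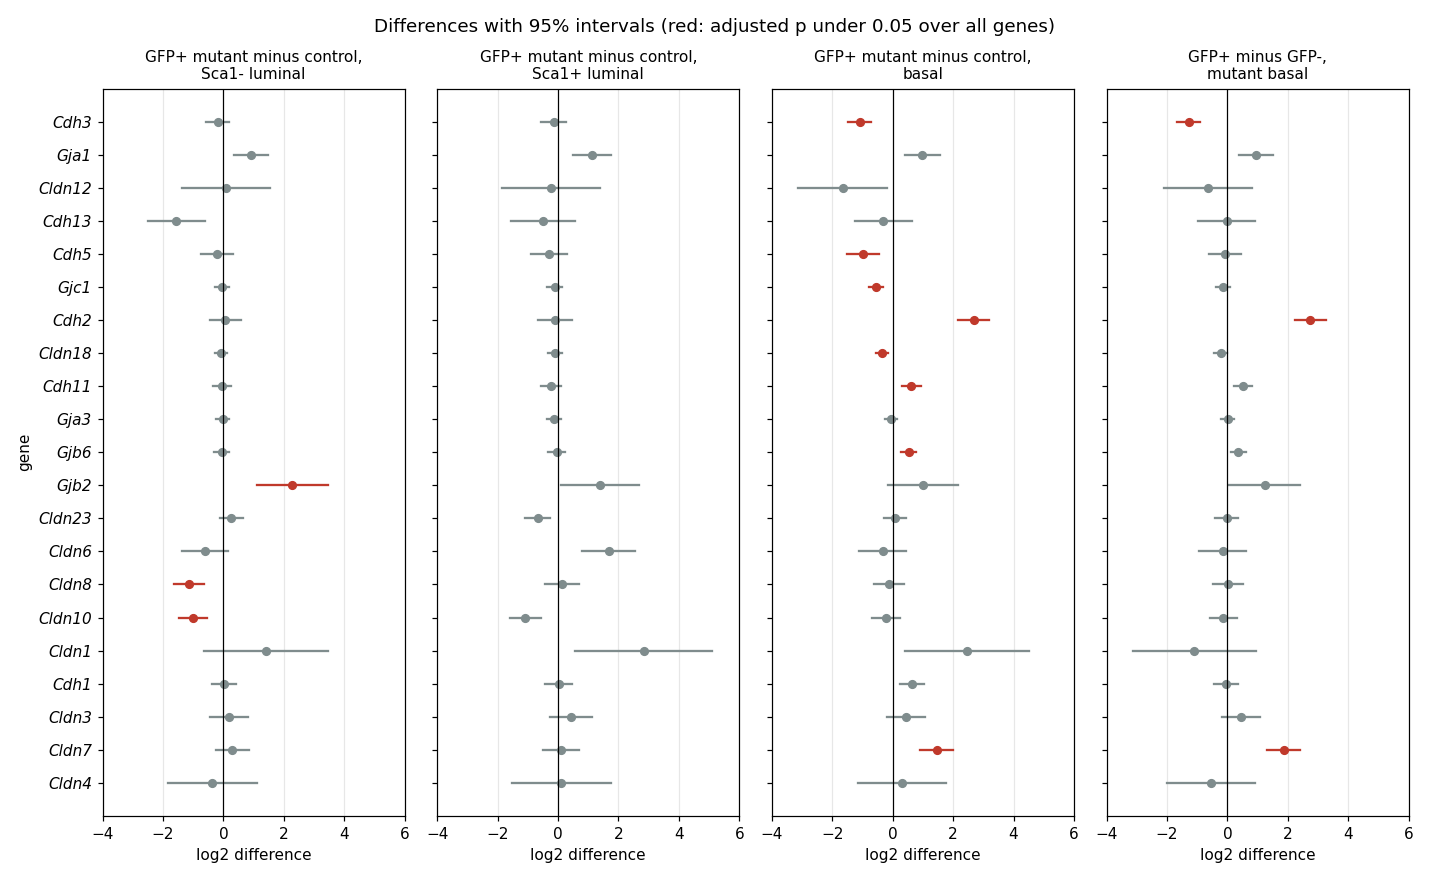
Log2 differences (x axis; points) with 95% intervals (lines) of the genes of the heat map in 4 comparisons, each first group minus second as titled; red marks an adjusted p under 0.05 over all genes. Cdh2 at 2.68 and 2.75 and Cldn7 at 1.46 and 1.86 are red in both basal panels, and no gene is red in the Sca1-positive luminal panel.

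Whether the mutant minus control difference itself differed between cell populations was tested as an interaction. Between basal and Sca1-negative luminal cells 1 of 58 genes was called, where 1.55% of all genes were, and between basal and Sca1-positive luminal cells 1 of 58, where 1.09% were. Both were Cdh2: its mutant minus control difference was greater in basal than in Sca1-negative luminal cells by 2.61 ± 0.33 (SE; adjusted p = 0.000457) and than in Sca1-positive luminal cells by 2.78 ± 0.36 (adjusted p = 0.000639). The luminal differences themselves were 0.07 and -0.10, with Cdh2 below the array medians on all 11 luminal arrays. These comparisons share the basal arrays. Without GFP-positive basal replicate 1 both also called Cdh3 (adjusted p = 0.0361 and 0.0471) and Gjb6 (0.0276 and 0.0485), without control basal replicate 2 both called Cldn7 (0.0294 and 0.0236), and Cdh3 (0.0395, without control basal replicate 1) and Cldn6 (0.000756, without control Sca1-positive replicate 3) were added once. For Cdh3 the interactions were -0.90 and -0.94 (adjusted p = 0.11 and 0.139), and for Cldn7 1.16 and 1.36 (adjusted p = 0.171 and 0.137). For Gja1 they were 0.07 (95% interval -0.74 to 0.88) and -0.14 (-1.0 to 0.71), and for Gjb2 -1.28 (-2.93 to 0.37) and -0.39 (-2.14 to 1.36). Among the partner genes, Dsc2 was called in the basal minus Sca1-negative interaction (2.51 ± 0.31 SE, adjusted p = 0.000394). Nectin3 was called in the basal minus Sca1-positive interaction (-1.09 ± 0.25 SE, adjusted p = 0.0497). Between the Sca1-positive and Sca1-negative luminal populations limma called no gene of the 58, where 0.14% of all genes were called. The largest interaction there was that of Cldn6 (2.28 ± 0.55, adjusted p = 0.163; 2.89, adjusted p = 0.0016, without control Sca1-positive replicate 3).

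The 40 genes called nowhere had differences of at most 1.74 log2 units in any comparison, interactions included. Gja3 (connexin 46, known from the eye lens and named here after its values were seen) had means of 5.56 to 5.70 in all 7 groups. Several of the genes lie side by side in the genome, in 14 adjacent pairs with no other protein-coding gene between them, and neighbours could differ in pattern or share it. Gja3, Gjb2 and Gjb6 follow each other on chromosome 14, and their highest and lowest group means lay 0.14, 4.23 and 0.53 log2 units apart, while Cldn3 and Cldn4 on chromosome 5 were both lower in control basal than in control luminal cells.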

How the data were processed

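The 7 sorted mammary groups were hybridized to 20 Affymetrix mouse gene arrays. The authors deposited 1 log2 value per probe set and array; the submitters' processing notes name affy without a role, and the normalization, filters and genome build are not given in the sources used here. Of 34760 probe sets, 21640 carried 1 gene symbol in the platform annotation and gave 19937 genes, each read from its brightest probe set on average; 1321 probe sets with several symbols and 11799 without a listed one were left out. The deposited log2 values were fitted without further normalization by limma's lmFit and eBayes (version 3.58.1, R 4.3.3; 1 mean per group over all 20 arrays), with Benjamini-Hochberg adjustment over all genes within each of 11 comparisons; the script was first tested on simulated data. A called gene had an adjusted p under 0.05. Errors beside differences are SE and those beside group means are SD. Levels carry no detection call, and the number of arrays limits their precision.

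The members and the lists were chosen with earlier results of these data known. The text names 12 family members whatever their values (Cdh1, Cdh2, Cdh3, Cdh5, Cldn1, Cldn3, Cldn4, Cldn5, Cldn7, Gja1, Gjb2 and Gjb6), every gene called in a mutant comparison or an interaction, the 12 largest called differences between control populations, up to 3 of the largest uncalled differences in each mutant comparison, any gene with a group mean above 8, and up to 5 called partner genes per comparison. Alternatives were quantile normalization, leaving out dim probe sets, a replicate block, array weights, eBayes with trend and robust settings, the mean of probe sets, a fit of the compared groups alone, and leaving out each array; leaving out both arrays of narrow spread and leaving out the GFP-negative basal group were chosen after seeing the data. Upstream sequences and neighbours came from RefSeq tables (GRCm38.p6).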

Additional observations from a re-analysis of the deposited data

Results flagged for a closer look

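The mutant minus control difference of Cdh2 was 2.61 log2 units greater in basal than in Sca1-negative luminal cells, and 2.78 greater than in Sca1-positive luminal cells; both stood out because the difference between populations was itself tested as an interaction and called (adjusted p = 0.000457 and 0.000639). Cdh2 was higher on 3 of 3 GFP-positive basal arrays than on any control basal array. The 2 tests share the basal arrays, and Cdh2 was under the array medians on all luminal arrays, so a difference between luminal mutants and controls at such levels could not be measured.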

How the results depend on the processing

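The alternatives gave 920 values over 62 named results, many of them from the same fits and from overlapping sets of arrays. Of these values, 823 kept their direction and side of the threshold, 74 fell short of it, 22 passed it newly and 1 reversed. Of the 41 called results, 25 kept their call in every alternative that could test them. The reversal was Cldn1 in GFP-positive against GFP-negative mutant basal cells, at 0.365 without GFP-negative replicate 3, against -1.09 with all arrays and -2.77 without GFP-negative replicate 1. With each array left out in turn, the number of the 58 genes called was 0 to 1 in Sca1-negative luminal cells (3 with all arrays), 0 to 1 in Sca1-positive luminal cells (0), 4 to 7 in GFP-positive against control basal cells (8), 0 to 1 in GFP-negative against control basal cells (0) and 3 to 5 in GFP-positive against GFP-negative basal cells (3). It was 10 to 13 in control basal against Sca1-negative luminal cells (12), 10 to 12 against Sca1-positive luminal cells (12) and 0 to 1 between the control luminal populations (1). In the interactions it was 1 to 3 for basal minus Sca1-negative (1), 1 to 3 for basal minus Sca1-positive (1) and 0 to 1 for Sca1-positive minus Sca1-negative luminal cells (0). A fit of the compared groups alone called 1 gene in Sca1-negative luminal, 1 in Sca1-positive luminal and 2 in GFP-positive against control basal cells; such fits hold fewer arrays. Leaving out dim probe sets left 10918 genes and removed Cdh2, Cdh5, Cldn18, Gjb6 and Gjc1, which could not be tested there. GFP-positive against control basal cells then gave 4 calls, of which 3 were among the 8 and Gja1 was new (adjusted p = 0.0368). With Cdh2 removed, both basal interactions gave 0 calls. Array weights gave 2 calls in each basal interaction, trend and robust settings gave 5 in GFP-positive against GFP-negative basal cells, and leaving out the GFP-negative basal group gave 1 in Sca1-positive luminal cells and 2 in the basal minus Sca1-positive interaction. Without both arrays of narrow spread the count between the control luminal populations was 0; the cause was not tested. Over 57 pairs of arrays that share a replicate number, deviations from the group means correlated at -0.05 to 0.22 (median 0.02, above 0.1 in 5), against -0.14 to 0.08 over 114 other pairs, and not every same-number pair was above 0.1. The labels do not say that a number marks a sorting, so the number was not taken as a pairing, although 15 of 20 arrays correlated best with an array of their own number, a hint from the data that it may be one. With the replicate number as a block the count was 0 between the control luminal populations (Gja1, adjusted p = 0.0725), and the luminal Sca1-negative Gjb2 call (adjusted p = 0.0567) and the Cldn18 call in basal cells (0.0674) were lost. A planned change of background correction was not run, because no scanner files were used here. Signals near the array median limit what 43 of the 58 genes can show.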
